A study of Canis lupus familiaris with 4 samples.

Results

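Wnt ligands, their receptors, their secreted antagonists, glypicans and a feedback gene of the pathway were followed in 4 canine glioblastoma lines. The 10 genes were WNT5A, WNT5B, DKK1, DKK3, SFRP1, FZD1, FZD7, GPC1, GPC3 and AXIN2. They were picked by symbol, with their ratios in these arrays already known, so every value below is a description without a test. Probe sets listed under the single symbol were found for 8 of the 10 genes, 17 probe sets in all, out of 42924 probe sets and 15115 genes with 1 symbol on the array. WNT5A and FZD1 were not listed and are not analysed here. Of the 8 genes, 4 reached a signal of 250 on at least 1 array, which was the limit for calling a gene measured, and DKK1, SFRP1, FZD7 and GPC1 stayed under it on all 4 arrays.

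J3T-1 and J3T-2 are glioma lines derived from one canine parental line, J3T. GEO's labels give J3T-1 as high and J3T-2 as low in annexin A2 (ANXA2), a membrane-binding protein. J3T-1shA is J3T-1 with ANXA2 knocked down, and in J3T-2A, made from J3T-2, it is overexpressed. All 4 were grown as cultures in medium with 10% fetal bovine serum, and no array of an empty-vector or control-hairpin line is analysed here, so the vector and the change in ANXA2 cannot be told apart. Each line was measured once, on 1 Affymetrix canine array, and whether the engineered lines are single clones is not given in the sources used here. The deposited values are MAS5 signals, which are intensities on a linear scale, scaled by the authors to one trimmed mean per array.

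With 1 array per line there is no replicate error, and the small number of arrays bounds what any ratio can show. The only spread at hand is that between probe sets of a gene. Where the 2 brightest probe sets of a gene both reached 250, the SD of the difference between their log2 ratios was 0.29 for J3T-2A over J3T-2 (3716 genes) and 0.37 for J3T-1 over J3T-1shA (3760 genes). In the other pairs of arrays the SD was 0.33 to 0.40. This covers measurement within 1 RNA sample and not variation between cultures. The signal of ANXA2 did not separate the lines labelled high from those labelled low. Its brightest probe set read 28656 in J3T-1, 30092.9 in J3T-1shA, 30102.5 in J3T-2 and 28774.6 in J3T-2A. The second read 24127.5 in J3T-1, 25725.4 in J3T-1shA, 30310.9 in J3T-2 and 35650.8 in J3T-2A, with J3T-2A the highest and J3T-1, also labelled high, the lowest. The remaining probe set stayed under the limit on all 4 arrays. The log2 ratios of the first 2 probe sets were -0.065 and 0.23 for J3T-2A over J3T-2 and -0.071 and -0.093 for J3T-1 over J3T-1shA, so they do not check the labels, and lines are named here as labelled. Of 10 neural and glial markers, SOX2, NES, VIM, SLC1A3, PDGFRA and CD44 reached 250 on at least 1 array. GFAP, S100B and FABP7 did not, and OLIG2 was not listed. The astrocyte filament gene GFAP had signals of 8.2 to 21.6, so no line had a signal of this marker over the limit.

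Wnt proteins are secreted, lipid-modified ligands that bind Frizzled receptors. One branch of the pathway stabilises beta-catenin, which enters the nucleus and switches on target genes. Another, used mainly by WNT5A and WNT5B, acts on cell polarity, calcium and motility without beta-catenin. DKK1 blocks the co-receptor LRP6, and SFRP1 binds the ligands themselves. DKK3 is a divergent member of the Dickkopf family that does not act as a classical LRP6 blocker. Glypicans are heparan sulphate proteoglycans anchored to the cell surface, where they hold Wnts and other growth factors near their receptors. AXIN2 is a scaffold of the complex that degrades beta-catenin and also a target gene of the pathway, so it acts as a feedback inhibitor. In glioma the pathway is best known for its links to stem-like growth and to invasion.

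**Figure D1:**
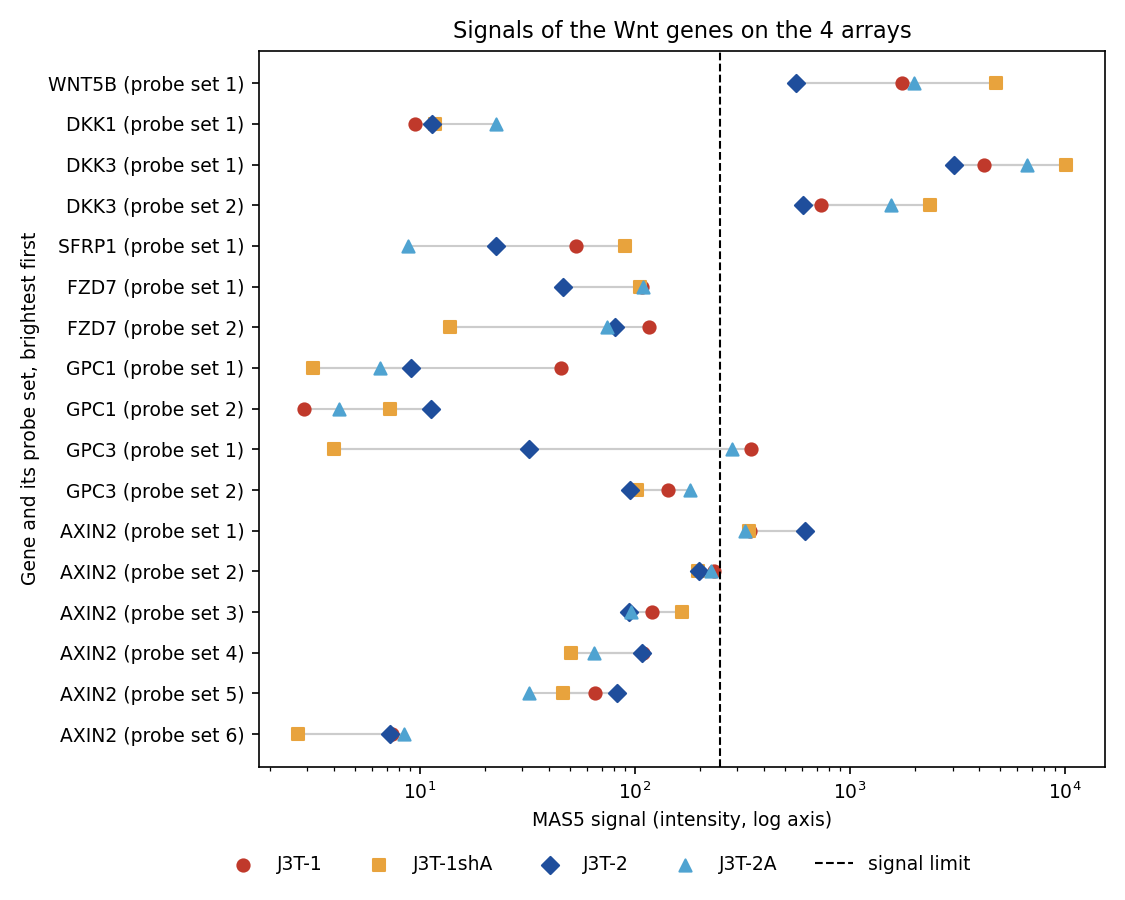
MAS5 signals (x axis, log scale) of the 17 probe sets of 8 Wnt genes (y axis, brightest probe set of each gene first) on the arrays of J3T-1 (red circles), J3T-1shA (orange squares), J3T-2 (dark blue diamonds) and J3T-2A (light blue triangles), 1 array per line, some points overlapping. The dashed line is the signal limit of 250, which 5 of the 17 probe sets reached on at least 1 array. Those of WNT5B and DKK3 and the brightest of AXIN2 reached it on all 4.

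The ligand WNT5B had the widest range of the genes over the limit on every array. Its signal was 558.9 in J3T-2, 1741.5 in J3T-1, 1975.8 in J3T-2A and 4795.8 in J3T-1shA. J3T-2 was the lowest and J3T-1shA the highest, 8.58-fold apart, with J3T-1 and J3T-2A close to each other in between. J3T-2A was 3.54-fold higher than J3T-2, a log2 ratio of 1.82. J3T-1 was 2.75-fold lower than J3T-1shA, a log2 ratio of -1.46. The ratio of the line labelled higher in ANXA2 over the lower thus had opposite signs in these 2 comparisons, which have no array in common. J3T-1 was 3.12-fold higher than J3T-2, and J3T-2A was 2.43-fold lower than J3T-1shA. Between J3T-2A and J3T-1 the log2 ratio was 0.18, within the spread between probe sets. Among genes that reached the limit on each array of a pair, the WNT5B ratio ranked 5 from the highest of 6237 for J3T-2A over J3T-2, 56 from the lowest of 6144 for J3T-1 over J3T-1shA and 5 from the highest of 6160 for J3T-1shA over J3T-2. WNT5B had 1 probe set, so no second reading stands beside these values.

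Of the antagonists, DKK3 was measured in every line and ordered the lines as WNT5B did. Its brightest probe set read 3048.8 in J3T-2, 4204.0 in J3T-1, 6647.8 in J3T-2A and 10148.9 in J3T-1shA. J3T-1shA was again the highest and J3T-2 the lowest. The second probe set read 606.6 in J3T-2, 731.3 in J3T-1, 1554.2 in J3T-2A and 2346.0 in J3T-1shA. Both probe sets were over the limit on all 4 arrays, gave the same order of lines, and had log2 ratios of the same sign in all 6 pairs. The name of the second carries a suffix that marks probes matching more than 1 transcript. For J3T-2A over J3T-2 the log2 ratios of the 2 probe sets were 1.12 and 1.36, and for J3T-1 over J3T-1shA they were -1.27 and -1.68. The fold by the brightest probe set was 2.18 higher in the first comparison and 2.41 lower in the second. J3T-1 over J3T-2 was within 2-fold in both probe sets, at 0.46 and 0.27. J3T-2A over J3T-1 lay on either side of the 2-fold line, at 0.66 by the brightest and 1.09 by the second probe set. DKK3 was 3.33-fold higher in J3T-1shA than in J3T-2 by the brightest probe set and 3.87-fold by the second.

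The order J3T-2, J3T-1, J3T-2A, J3T-1shA from low to high that WNT5B and DKK3 shared was also that of 390 of the 7241 genes that reached 250 on an array, or 5.39%. Among the 1220 of these that spanned at least 2-fold over the 4 arrays, it was the order of 96, or 7.87%. Markers of other cell types also differed between the lines, in several orders. Of 7 fibroblast and pericyte markers, 5 reached the limit on an array, PDGFRB and RGS5 did not, and none was at 0. Their summed signal was 39684.4 in J3T-1, 53764.8 in J3T-2, 72563.1 in J3T-2A and 81561.7 in J3T-1shA. COL1A1, a fibrillar collagen, read 2013.8 in J3T-1, 3798.8 in J3T-2, 11898.9 in J3T-2A and 16841.9 in J3T-1shA. ACTA2, smooth muscle actin, was 24.9 in J3T-2, 98.7 in J3T-2A, 562.2 in J3T-1 and 13625.3 in J3T-1shA. Both were highest in J3T-1shA, as WNT5B and DKK3 were, and so, only just over J3T-2A, was COL1A2, the other chain of that collagen. DCN and LUM were not. The proteoglycan DCN was highest in J3T-2, at 1292 against 387.9 in J3T-1, 1166.5 in J3T-1shA and 794.8 in J3T-2A. LUM, a related proteoglycan, was highest in J3T-2A, at 29213 against 14940.1 in J3T-1, 18644.1 in J3T-1shA and 25065.4 in J3T-2. COL1A2 read 21684 in J3T-1, 31252.5 in J3T-1shA, 23487.5 in J3T-2 and 30514 in J3T-2A. None of these 5 markers had the full order of WNT5B and DKK3. Outside this list, the endothelial marker PECAM1 was over the limit in J3T-2 alone, at 773.2, and read 161 in J3T-2A, 37 in J3T-1 and 1 in J3T-1shA. The other 5 endothelial markers were under the limit on every array. The keratin KRT8 was likewise highest in J3T-2, at 1076.3 against 288 to 562.6 elsewhere. Of the other epithelial markers, EPCAM, CDH1 and KRT18 were under the limit on every array and KRT19 was not listed. Only C1QA of 6 microglia and macrophage markers reached the limit, at 661.5 in J3T-1, 514.8 in J3T-1shA, 317.4 in J3T-2 and 298 in J3T-2A. The neural and glial marker SLC1A3 had the order of WNT5B and DKK3. It read 1996.2 in J3T-2, 2422.1 in J3T-1, 3998.8 in J3T-2A and 5505.5 in J3T-1shA. Of the other neural and glial markers that reached the limit, NES was also highest in J3T-1shA, at 345.9 against 94.9 in J3T-2, 126.4 in J3T-2A and 150.2 in J3T-1. SOX2 read 1662.5 in J3T-1shA and 1454.3 in J3T-2, which is within the spread between probe sets. VIM hardly differed, at 41176.9 in J3T-1 to 43057.8 in J3T-1shA. PDGFRA and CD44 were highest in other lines. The part of all these markers in the ratios of WNT5B and DKK3 was not tested.

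The other antagonists had no signal to compare. DKK1 read 9.5 in J3T-1, 11.7 in J3T-1shA, 11.4 in J3T-2 and 22.5 in J3T-2A. SFRP1 read 53.5 in J3T-1, 89.8 in J3T-1shA, 22.7 in J3T-2 and 8.8 in J3T-2A. All 8 values lay under the median signal of all probe sets on an array, which was 101.8 to 106.5. Ratios between signals this dim carry no order, and none is read from them.

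The glypican GPC3 was the measured gene whose ratio was over 2-fold in the same direction in both ANXA2 comparisons. Its brightest probe set read 347.2 in J3T-1 and 284.3 in J3T-2A, the lines labelled high in ANXA2, against 4.0 in J3T-1shA and 32.1 in J3T-2. Readings of the lines labelled high and low in ANXA2 did not overlap, which held in this direction for 14.1% of the 7241 genes and in the other for 12.8%. Each of the higher readings was only a little over the limit, and GPC3 counted as measured solely through the lines where it was high. The log2 ratio was 3.15 for J3T-2A over J3T-2 and 6.44 for J3T-1 over J3T-1shA. The sizes are set by signals far under the limit. With every signal under 160 raised to 160, J3T-2A was 1.78-fold higher than J3T-2, under 2-fold, and J3T-1 was 2.17-fold higher than J3T-1shA. Adding 80 to each signal gave log2 ratios of 1.70 and 2.35. The second GPC3 probe set stayed under the limit, at 142.8 in J3T-1, 102.6 in J3T-1shA, 94.8 in J3T-2 and 180.7 in J3T-2A. Signals under the limit carry no order here, so no likeness to the brightest probe set is read from these. In log2, J3T-2A stood 0.93 above J3T-2 and J3T-1 stood 0.48 above J3T-1shA. With signals under 160 raised to 160, these differences shrank to 1.13-fold and 1-fold. The second probe set spanned 1.91-fold over the 4 arrays, where the brightest spanned 86.8-fold. Its name carries the suffix that marks probes matching more than 1 transcript, as does that of the second DKK3 probe set. Among genes named below, both probe sets of GPC4 and the second of SDC2 and of PORCN carry it too. Between J3T-2A and J3T-1 the brightest probe set had a log2 ratio of -0.29, within the spread between probe sets. The lines labelled high in ANXA2 were thus not set apart from each other by it. The second had one of 0.34, from signals under the limit.

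GPC1, another glypican, was not detectable over the limit. Its probe sets read 2.9 to 45.5 over all arrays, and their log2 ratios had the same sign in 2 of 6 pairs. The receptor FZD7 was likewise dim. Its brighter probe set read 108.2 in J3T-1, 106.1 in J3T-1shA, 46.1 in J3T-2 and 109.1 in J3T-2A. The second read 116.6 in J3T-1, 13.8 in J3T-1shA, 80.7 in J3T-2 and 74.3 in J3T-2A. The first was lowest in J3T-2 and the second in J3T-1shA, and the signs matched in 3 of 6 pairs, so no difference between lines is read for FZD7.

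**Figure D2:**
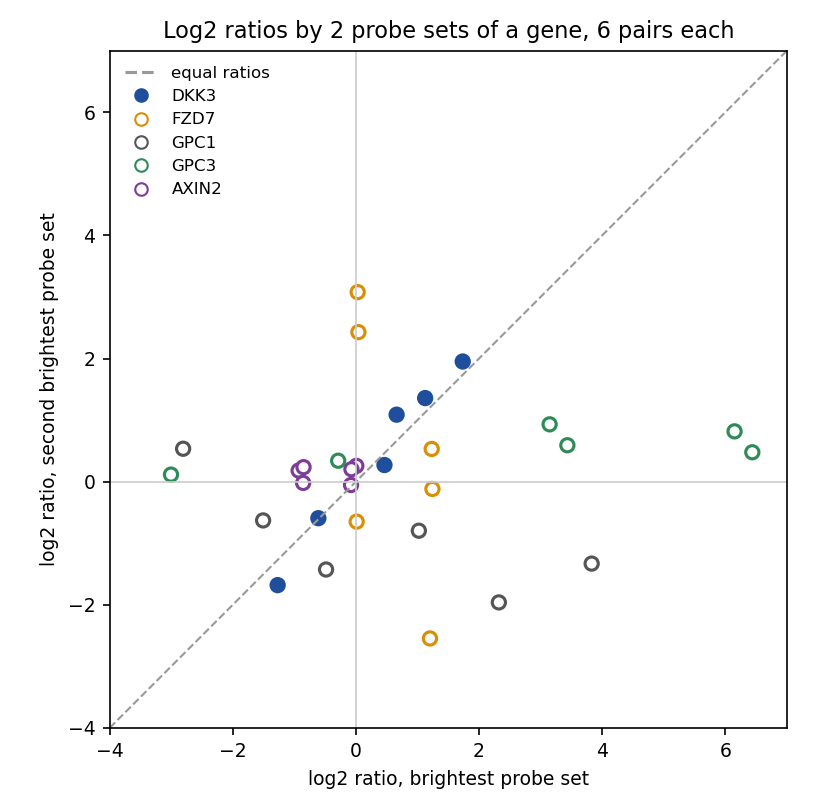
Log2 ratio by the brightest probe set (x axis) and by the second brightest (y axis) of the 5 Wnt genes with more than 1 probe set, each point 1 of the 6 pairs of arrays. Filled points have both probe sets over the signal limit of 250 in that pair and open points do not. The 6 DKK3 points lie near the dashed line of equal ratios, at most 0.43 from it in log2, whereas those of FZD7, GPC1 and GPC3 are up to 3.75, 5.16 and 5.96 from it.

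AXIN2, the feedback gene of the beta-catenin branch, was highest in J3T-2 by its brightest probe set, with the other lines close to each other. This probe set read 617.0 in J3T-2, 342.0 in J3T-1, 340.5 in J3T-1shA and 323.7 in J3T-2A. The log2 ratio was -0.93 for J3T-2A over J3T-2, which is 1.91-fold lower and just inside 2-fold. It was 0.0063 for J3T-1 over J3T-1shA, -0.85 for J3T-1 over J3T-2 and -0.86 for J3T-1shA over J3T-2. The other probe sets listed for AXIN2 did not all show the higher value in J3T-2. The second read 233.6 in J3T-1, 195.6 in J3T-1shA, 198.5 in J3T-2 and 224.9 in J3T-2A, a span of 1.19-fold with J3T-2 among the lower lines. Its log2 ratio for J3T-2A over J3T-2 was 0.18, so it went the opposite way to the brightest. The remaining 4 probe sets read 2.7 to 165.5, and of these only the fifth was highest in J3T-2, at 82.6. Of all 6, only the brightest reached the limit on any array. Whether all 6 read the same transcript was not tested, so the values of the brightest are those of 1 probe set and not of the gene as a whole.

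Counted by the brightest probe set, 3 of the 4 measured genes were over 2-fold higher in J3T-2A than in J3T-2 (WNT5B, DKK3 and GPC3) and none was over 2-fold lower. Over all 6860 measured genes, 1.69% were over 2-fold higher and 2.1% over 2-fold lower. DKK3, at 2.18-fold, was the gene nearest to the 2-fold line from outside and AXIN2, at 1.91-fold, from inside. In J3T-1 over J3T-1shA, 1 of the 4 was over 2-fold higher (GPC3) and 2 were over 2-fold lower (WNT5B and DKK3), where 3.8% of 6944 measured genes were higher and 4.26% lower. Since the genes were chosen with these ratios known, nothing is read from these shares. In J3T-1 over J3T-2, WNT5B and GPC3 were over 2-fold higher and none was lower (2.94% and 4.05% of 6967 genes). In J3T-2A over J3T-1shA, GPC3 was higher and WNT5B lower (3.11% and 2.66% of 6846 genes). All 4 were within 2-fold in J3T-2A over J3T-1 (2.72% higher and 1.94% lower of 6850 genes). Of 3 genes measured in J3T-1shA over J3T-2, WNT5B and DKK3 were higher and AXIN2 was within 2-fold (4.39% higher and 5.31% lower of 7012 genes). The median log2 ratio of the measured genes was 1.47 for J3T-2A over J3T-2 and -0.63 for J3T-1 over J3T-1shA, beside medians of -0.0034 and 0.033 over all measured genes. The 6 pairs are built from 4 arrays, so only 3 of the ratios of a gene are free and the rest follow from them.

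**Figure D3:**
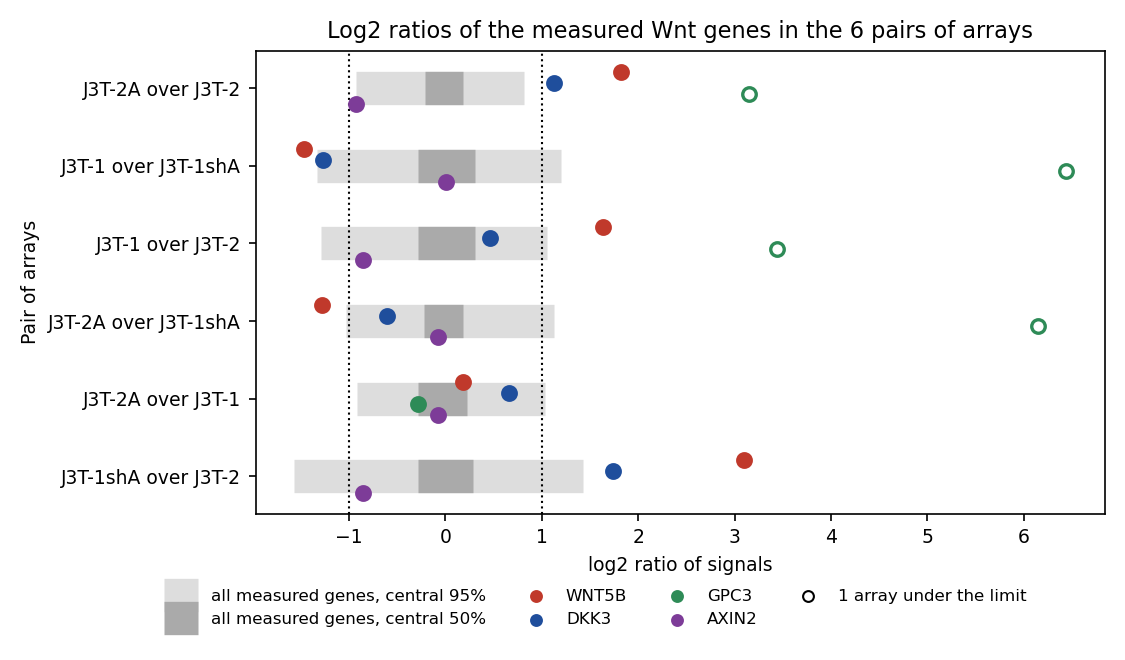
Log2 ratios (x axis) of the 4 measured Wnt genes by their brightest probe set in the 6 pairs of arrays (y axis), with the central 95% (light grey) and 50% (dark grey) of all measured genes. Open circles have 1 array of the pair under the signal limit of 250, and dotted lines mark 2-fold. WNT5B and DKK3 lie to the right for J3T-2A over J3T-2 (1.82 and 1.12) and to the left for J3T-1 over J3T-1shA (-1.46 and -1.27), GPC3 lies to the right in both, and all 4 genes lie inside 2-fold for J3T-2A over J3T-1.

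The rest of the pathway was read from lists of 112 other genes by role, 109 of which were listed on the array. For J3T-2A over J3T-2, 35 of them were measured, 2 were over 2-fold higher, none was lower and 33 were within 2-fold, with a median log2 ratio of 0.023, where 1.69% of all measured genes were higher and 2.1% lower, with a median of -0.0034. The 2 higher genes were SDC2, a syndecan, and BAMBI, a decoy receptor of the TGF-beta family that is also a beta-catenin target. SDC2 read 1934.6 in J3T-2, 5971.9 in J3T-2A, 5871.8 in J3T-1shA and 7794.8 in J3T-1, so J3T-2 stood below the other lines. Its second probe set, at 788.0 in J3T-2 and 2636.4 in J3T-2A, gave a log2 ratio of 1.74 beside 1.63 for the first. BAMBI read 229.7 in J3T-2, 666.6 in J3T-2A, 225.0 in J3T-1 and 801.0 in J3T-1shA. It was 2.90-fold higher in J3T-2A than in J3T-2 and 3.56-fold lower in J3T-1 than in J3T-1shA, the same pair of opposite signs as for WNT5B and DKK3. Unlike them, BAMBI was under the limit in J3T-2 and J3T-1 and counted as measured solely through the lines where it was high.

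For J3T-1 over J3T-1shA, 39 of the other pathway genes were measured, 3 were over 2-fold higher, 6 were lower and 30 were within 2-fold, with a median log2 ratio of 0.27. Over all measured genes 3.8% were higher and 4.26% lower, with a median of 0.033, and nothing particular to the pathway is read from its counts. Among the antagonists, SFRP4 was over the limit in J3T-1shA only, at 574.3 against 3.9 in J3T-1, 1.0 in J3T-2 and 7.9 in J3T-2A. Its other probe sets read 266.3 and 277.0 in J3T-1shA and at most 89.6 elsewhere. NOTUM, an enzyme that removes the lipid from Wnts, was 343.5 in J3T-1 against 821.3 in J3T-1shA. Of the 4 measured antagonists, DKK3, SFRP4 and NOTUM were lower in J3T-1 than in J3T-1shA and FRZB was within 2-fold. In J3T-1shA over J3T-2 these 4 were over 2-fold higher, FRZB with 463.0 against 117.9, where 4.39% of all measured genes were higher and 5.31% lower. The rest of the 17 antagonists listed were under the limit on both arrays of these pairs.

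Proteoglycans on the cell surface differed in both directions. In J3T-1 over J3T-1shA, GPC4 was lower and GPC3 higher, GPC4 reading 139.1 in J3T-1 and 1498.9 in J3T-1shA. Its 2 probe sets gave log2 ratios of -3.43 and -3.41. In J3T-2A over J3T-2, where GPC3 was again higher, the 2 GPC4 probe sets gave 0.34 and 0.63, both within 2-fold. SDC1 was 128.4 in J3T-1 against 480.8 in J3T-1shA, and it was under the limit in both J3T-2 (22.8) and J3T-2A (241.5). Of 12 glypicans, syndecans and sulfatases, 5 were measured in J3T-2A over J3T-2, with GPC3 and SDC2 higher. Of 6 measured in J3T-1 over J3T-1shA, GPC3 was higher and GPC4 and SDC1 were lower. Ligand secretion was covered by PORCN, which attaches the lipid to Wnts, and WLS, their carrier. PORCN was 580.7 in J3T-1 and 177.9 in J3T-1shA, 3.26-fold apart, and 1.81-fold by its second probe set. It was 899.1 in J3T-2 and 716.1 in J3T-2A. WLS was within 2-fold in all pairs, at 10396.9 to 15109.5.

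Receptors and the beta-catenin machinery were mostly within 2-fold. Of 16 receptors and co-receptors, FZD2, FZD8, LRP6, RYK and PTK7 were measured, and all 5 were within 2-fold in J3T-2A over J3T-2 and in J3T-1 over J3T-1shA. FZD2 read 2130.3 in J3T-1, 2933.1 in J3T-1shA, 3175.0 in J3T-2 and 2919.0 in J3T-2A. CTNNB1, which encodes beta-catenin, read 21021.2 to 24790.4, and the transcriptional co-activator BCL9 was the gene of its machinery outside 2-fold in J3T-1 over J3T-1shA, at 561.7 and 248.6. Among 17 feedback and target genes of beta-catenin, 6 were measured in each comparison. For J3T-2A over J3T-2 only BAMBI was over 2-fold different. For J3T-1 over J3T-1shA the oncogene MYC was 2.05-fold higher, NOTUM and BAMBI were lower, and AXIN2, CCND1 and CD44 were within 2-fold. In the polarity and calcium branch PRICKLE1 was 921.4 in J3T-1 and 2385.7 in J3T-1shA, and the other 9 measured genes were within 2-fold. All 11 measured in J3T-2A over J3T-2 were within 2-fold. Of the 17 ligands listed, WNT3 was the other one over the limit, at 258.3 to 341.8, and it was within 2-fold in every pair.

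**Figure D4:**
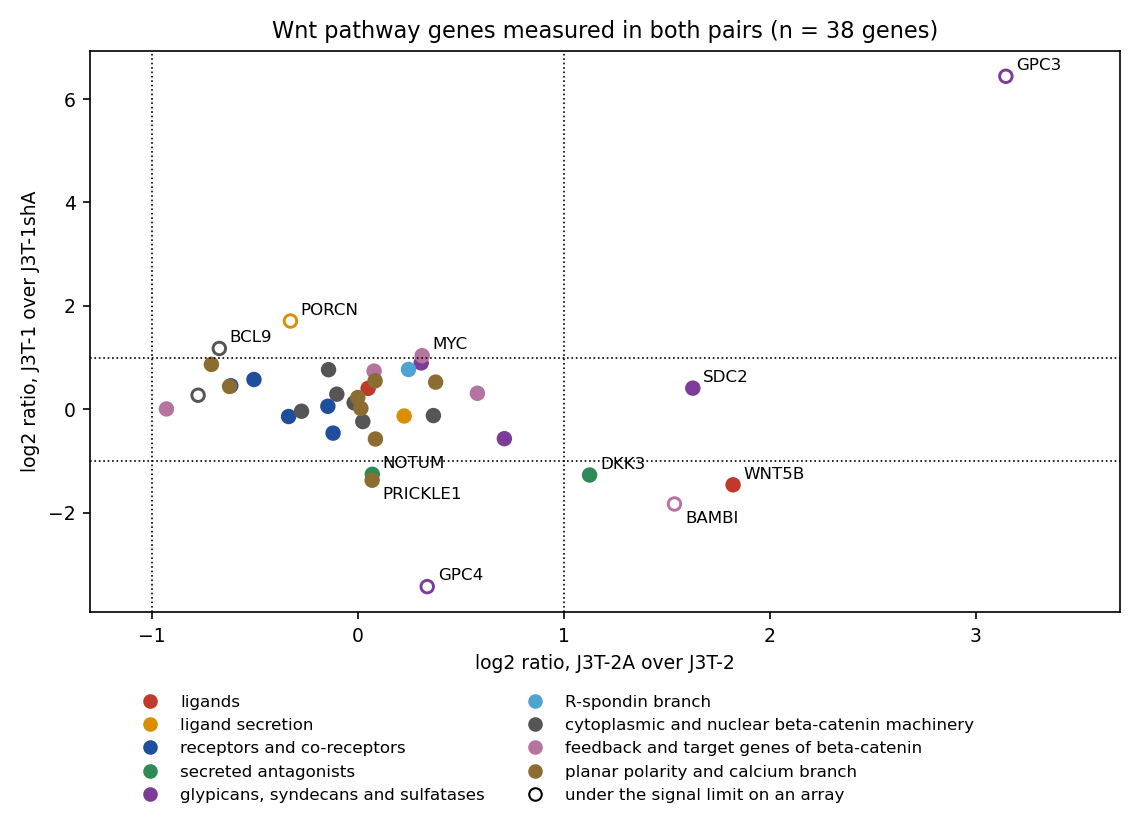
Log2 ratios of 38 Wnt pathway genes measured in both comparisons, J3T-2A over J3T-2 (x axis) and J3T-1 over J3T-1shA (y axis), coloured by role, with open circles for genes under the signal limit of 250 on any array and dotted lines at 2-fold. GPC3 alone lies over 2-fold higher in both, its y value resting on a signal of 4.0. WNT5B, DKK3 and BAMBI lie over 2-fold higher on the x axis and over 2-fold lower on the y axis, and most genes lie within 2-fold in both.

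The genes most like WNT5B, DKK3 and GPC3 across the lines were sought among the same 7241 genes, by the root mean square difference of log2 signals, each gene centred on its own mean over the 4 arrays. The nearest to WNT5B were EPDR1 (0.15), FXYD1 (0.19) and EPAS1 (0.21). EPDR1, an ependymin-related protein, read 4271.7 in J3T-1, 11241.5 in J3T-1shA, 1651.2 in J3T-2 and 5788.0 in J3T-2A. EPAS1, the hypoxia-inducible factor HIF-2 alpha, was over the limit in J3T-1shA only, at 505.2, and FXYD1 likewise at 284.9. Since their other 3 signals were under it, no likeness to WNT5B is read for these 2 genes. The nearest to DKK3 were GALNT7 (0.025), LOXL2 (0.097) and SLC1A3 (0.099). LOXL2, an enzyme that cross-links collagen, read 3660.1 in J3T-1, 10239.4 in J3T-1shA, 2838.5 in J3T-2 and 5635.0 in J3T-2A. The difference between WNT5B and DKK3 themselves was 0.53. By the same measure the genes closest to GPC3 were PRKCZ, SEMA3A and CA2, at 1.19, 1.24 and 1.32, but these differences rest on GPC3 signals of 4.0 and 32.1, far under the limit, and no likeness or lack of it is read from them. AXIN2 spanned less than 2-fold and was not matched. With 4 arrays these distances rest on 3 free differences per gene, and nothing is read from them about shared control.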

How the data were processed

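Total RNA (250 ng) from 4 canine lines was hybridized to Affymetrix Canine Genome 2.0 arrays, 1 per line. The authors computed the deposited intensity of each probe set with MAS5 at default settings and global scaling. The methods state a trimmed mean of 100, whereas the deposited columns had trimmed means of 495.8 to 496.0 after leaving out 2% at each end, so a limit of 50 on the stated scale became 250. Of the probe sets, 35.2% to 35.9% per array reached it. Detection calls and change p-values were not used here, and the genome build is not given in the sources used here, so no positions or sequences are given.

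Symbols came from the platform annotation, which gave 29254 probe sets 1 symbol, 439 several and left 13231 unlisted. Of the first, 27680 were looked up again by Entrez identifier in the RefSeq table, and 0 changed. A gene was represented by its probe set with the highest mean over the 4 arrays. Ratios were taken without pseudocount or floor, with a gene taken as measured once the brighter of both arrays reached 250 and as different at 2-fold or more. The calculation of ratios and counts was checked on simulated data with less spread between probe sets than in these arrays. That check does not cover the error of a ratio here. No test was made, since there is 1 array per line. Python 3.11.15, numpy 2.4.6 and pandas 2.3.3 were used.

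The genes and lists were chosen with earlier results of these data known. Named were the 10 genes, ANXA2, pathway genes over 2-fold in J3T-2A over J3T-2 or J3T-1 over J3T-1shA, and for genes spanning a log2 unit the 3 nearest by pattern. FZD2, FZD8, LRP6, RYK, PTK7, WNT3, WLS, CTNNB1, CCND1, CD44, FRZB and the markers were named outside that rule. Alternatives were signal limits of 500 and none, quantile normalization, median centring, a pseudocount of 80, a floor of 160, the median of a gene's probe sets over the limit and its second probe set. A limit on both arrays was added after seeing the data.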

Additional observations from a re-analysis of the deposited data

Results flagged for a closer look

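WNT5B, DKK3 and BAMBI were over 2-fold different with opposite signs in the 2 comparisons of ANXA2-high with ANXA2-low lines, 1 array against 1 array in each. For WNT5B the log2 ratio was 1.82 for J3T-2A over J3T-2 and -1.46 for J3T-1 over J3T-1shA, a difference of 3.28. For DKK3 it was 1.12 and -1.27, a difference of 2.40. For BAMBI it was 1.54 and -1.83, a difference of 3.37, with signals under the limit in J3T-2 (229.7) and J3T-1 (225.0). The difference was not tested, since each line has 1 array. The share of all genes with such opposite signs was not counted, so nothing is read from this number of genes. The order of lines shared by WNT5B and DKK3 was that of 7.87% of the 1220 genes spanning at least 2-fold.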

How the results depend on the processing

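Among the 4 measured genes, quantile normalization, median centring, a pseudocount of 80 and the median of the probe sets left the number over 2-fold within 1.5 times its value in all 6 pairs. The median took in only probe sets that reached 250 in the pair, so it could change the value of DKK3 alone. No log2 ratio over 2-fold changed sign under quantile normalization or median centring. A signal limit, a pseudocount and a floor cannot reverse a sign, so nothing is read from its staying the same under them. With no signal limit the number rose from 3 to 5 for J3T-2A over J3T-2, from 2 to 5 for J3T-1 over J3T-2, from 2 to 4 for J3T-2A over J3T-1shA, from 0 to 3 for J3T-2A over J3T-1 and from 2 to 6 for J3T-1shA over J3T-2, by adding genes under the limit on both arrays. A limit of 500, or 250 on both arrays, left 1 gene (WNT5B) for J3T-1 over J3T-2 and for J3T-2A over J3T-1shA. It left 2 genes (WNT5B and DKK3), down from 3, for J3T-2A over J3T-2 and for J3T-1 over J3T-1shA. In each case GPC3 was then not counted. A floor of 160 also left 1 gene for J3T-2A over J3T-1shA and 2 genes for J3T-2A over J3T-2, GPC3 then being within 2-fold in both. The second probe set could be used for DKK3 alone, which was over 2-fold different (1 gene) for J3T-2A over J3T-2, J3T-1 over J3T-1shA, J3T-2A over J3T-1 and J3T-1shA over J3T-2, and within it (0 genes) for the other pairs. Of 130 log2 ratios of single genes under an alternative, 122 moved by less than the SD between probe sets and 8 by more, all of GPC3, under the pseudocount (1.70 to 2.35) or the floor (0.83 to 1.12). Many of the 122 were fixed in advance and are no sign of stability. A signal limit cannot change a ratio (15 ratios at 500 and 23 with none). Nor can the floor where both signals exceed 160 (19 ratios). No paired analysis was possible because each line has 1 array and the labels give no replicate numbers. Signals under the limit carry no order here, which leaves DKK1, SFRP1, FZD7 and GPC1 unread, and the number of arrays limits all ratios.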
